A study of Mus musculus with 8 samples.

Results

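The mitosis and spindle genes are a set of 40 genes that act while a cell divides, taken as every probe whose platform gene symbol is on that list. Of the 40 genes, 35 had at least 1 listed probe, 51 probes in all out of 25697 on the array, and 28 genes with 38 probes were above background often enough to be tested, out of 9028 named genes tested. Spleen RNA was read on 8 arrays (Illumina MouseRef-8 v2.0 BeadChip), on which beads carrying a gene-specific oligonucleotide bind biotin-labelled RNA and are read as brightness. All recipients were 10-week-old B6D2F1J mice, a cross between C57BL/6 and DBA/2, taken at day 14 of engraftment under a parent-into-F1 model for lupus. In 4 arrays the donor was DBA, and in the other 4 it was B10.D2, a strain that is not a parent of this hybrid. The labels name neither the donor cell type nor the number of cells, no array of a recipient without engraftment was used here, and nothing says that each replicate is its own mouse, so the p-values reflect only the spread among these 8 samples, part of which may be technical.

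Cells enter mitosis when cyclin B and the kinase Cdk1 are switched on together. The kinases Plk1 and Aurka then mature the centrosomes, kinesin motors build the spindle, kinetochores tie chromosomes to it, and a checkpoint holds the anaphase-promoting complex in check until every chromosome is attached. Transcription of most of these genes is confined to the later part of the cell cycle, so their RNA in a tissue is commonly read as a sign of how many cells are dividing. In the adult mouse spleen, dividing cells include erythroid precursors of the red pulp, germinal centre B cells, plasmablasts and activated T cells. In RNA from whole spleen, more dividing cells and more of these RNAs per cell cannot be told apart.

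Values are normalized log2 intensity, a brightness scale that cannot be compared between probes, and differences are DBA donor minus B10.D2 donor. Between 12601 and 13320 probes were above background per array, at a detection p under 0.05. Arrays correlated at 0.98 to 0.994 within groups across probes. The red pulp macrophage gene Spic, the B cell receptor gene Cd79a and the T cell gene Cd3e were above background on all 8 arrays, so the defining markers checked for spleen were present.

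The 28 tested genes were mostly high on the same arrays and low on the same arrays. On the high array of each group, the gap to the rest of the group was at least as large as the donor difference. On DBA donor replicate 2 all 28 were above their own mean over the 8 arrays, and on B10.D2 donor replicate 4 all 28 were too. Of these, Ube2c and Kif20a lay near background and passed the filter only with these 2 arrays counted. Ube2c was above background on 2 DBA donor and 2 B10.D2 donor arrays, and Kif20a on 2 and 3. The other 26 genes were above background on all 8 arrays. DBA donor replicate 2 was the highest array of its group for 27 of the 28 genes (Tpx2 was higher on replicate 3), where it was highest for 26.8% of all tested genes. B10.D2 donor replicate 4 was the highest of its group for 26 of the 28 (all but Bub1b and Kif20a), against 27.8% of all tested genes. At the other end, DBA donor replicate 1 was the lowest of its group for 22 of the 28, against 23.5% of all tested genes. In the B10.D2 donor group the lowest array was replicate 2 for 15 of the 28 and replicate 1 for 11, against 18.1% and 23.9% of all tested genes.

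**Figure D1:**
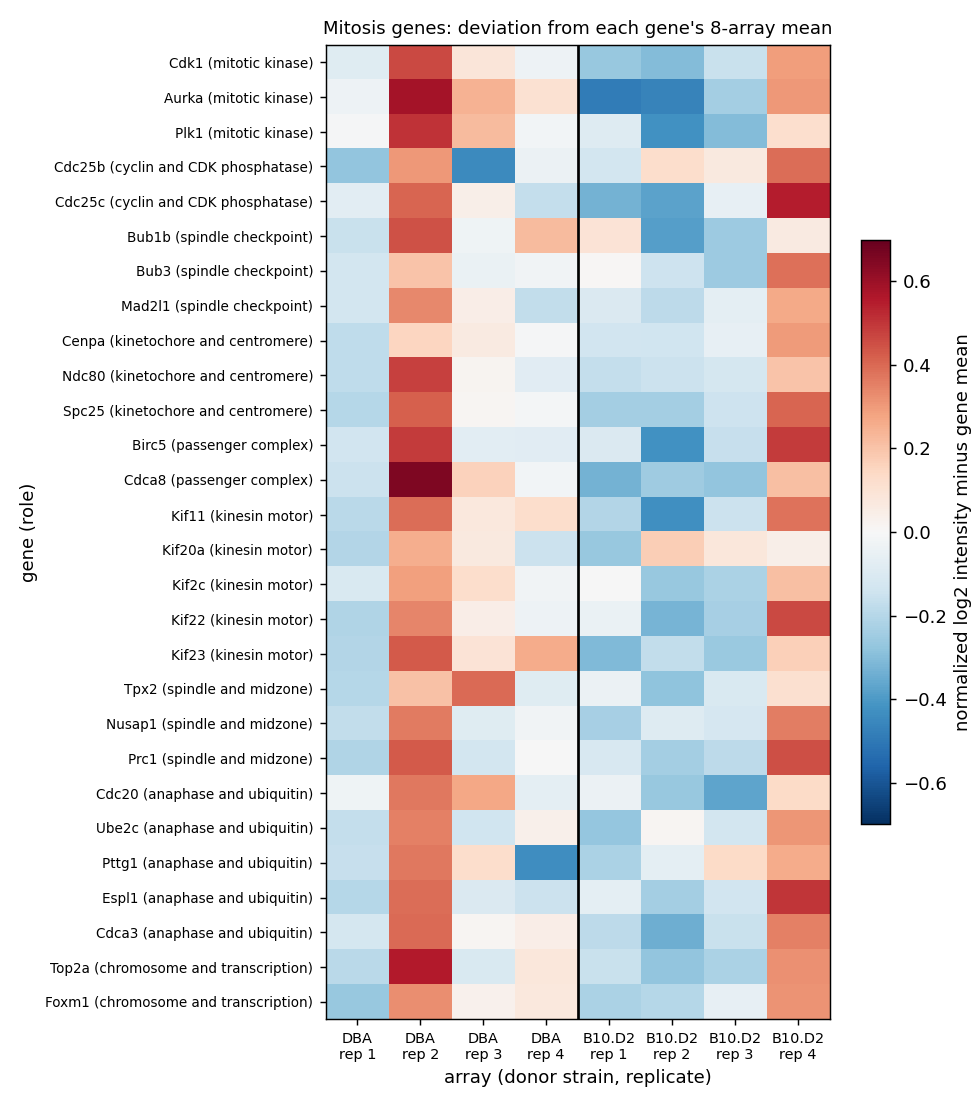
Normalized log2 intensity of each of the 28 tested mitosis genes (rows, with the role used here) minus that gene's mean over the 8 arrays (columns, DBA donor left of the line and B10.D2 donor right of it). The columns of DBA donor replicate 2 and B10.D2 donor replicate 4 are red for all 28 genes, while no other column is above the mean for more than 19.

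The gap between each high array and its group was larger than the gap between the groups. The median gene was 0.44 higher on DBA donor replicate 2 than on the other 3 arrays of that donor (range 0.17 to 0.66, a 1.36-fold median), and 0.48 higher on B10.D2 donor replicate 4 than on the other 3 of its donor (range 0.04 to 0.80, 1.40-fold). Over all tested genes the same medians were -0.04 and -0.03, but quantile normalization by itself holds such values near 0. Over all tested probes, the deviations of the 2 arrays from their group means correlated at 0.562. These 2 arrays were picked out because they stood high, so these values are a description with no test. The median donor difference of the 28 genes was 0.11, and for each of the 28 both gaps were at least as large as the donor difference, with Bub1b at 0.24 for its donor difference and for its gap on B10.D2 donor replicate 4. The share of all tested genes for which this held was not worked out, so the count is not read as particular to these genes. The median within-group SD was 0.26 for these genes and 0.16 for all tested genes.

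**Figure D2:**
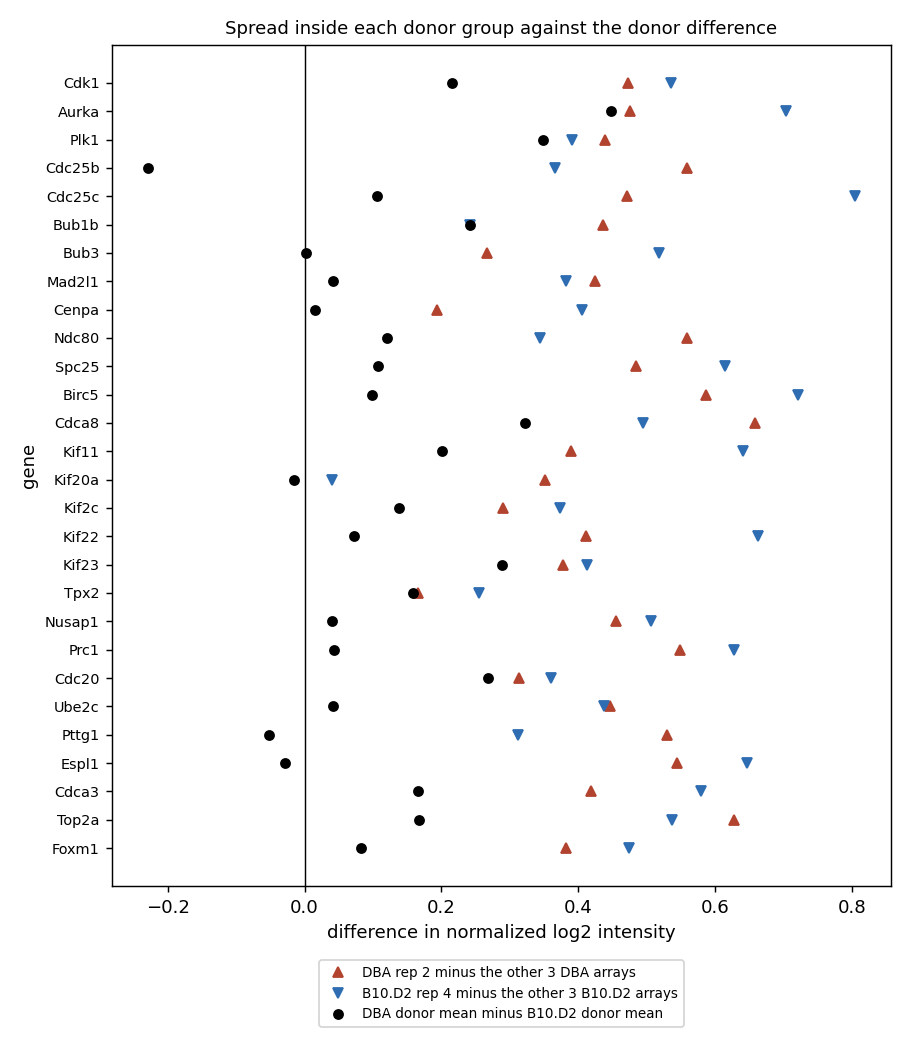
For each tested gene (rows), the value on DBA donor replicate 2 minus the mean of the other 3 DBA donor arrays (red), the value on B10.D2 donor replicate 4 minus the mean of the other 3 B10.D2 donor arrays (blue) and the DBA donor mean minus the B10.D2 donor mean (black), all in normalized log2 intensity. The red and blue marks have medians of 0.44 and 0.48, and the black marks lie to their left or level with them, with a median of 0.11.

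No mitosis gene passed the test between donors. Of 38 tested probes, limma called 0 at an adjusted p under 0.05, where it called 0.0695% of all tested probes. At an unadjusted p under 0.05 there were 4 of the 38, all higher in DBA donor spleens (2 probes of Cdc20 and 1 each of Aurka and Plk1), against 7.11% of all tested probes higher and 7.39% lower. With 1 probe per gene, the one with the highest mean, 24 of the 28 differences were positive, against 46% of all tested genes. Their median of 0.11 stood beside a median of -0.02 over all tested genes. This count moved with which high array was left out. Without DBA donor replicate 2 alone, 12 of 28 differences were positive and the median was -0.01. Without B10.D2 donor replicate 4 alone it was 26 of 28, with a median of 0.23. Without both, a repeat chosen after seeing the data, it was 24 of 28, with a median of 0.13. With every array set side by side, 0 of the 28 genes had fully separate groups, where 3.69% of all tested genes lay fully higher in DBA donor spleens and 4.76% fully lower.

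**Figure D3:**
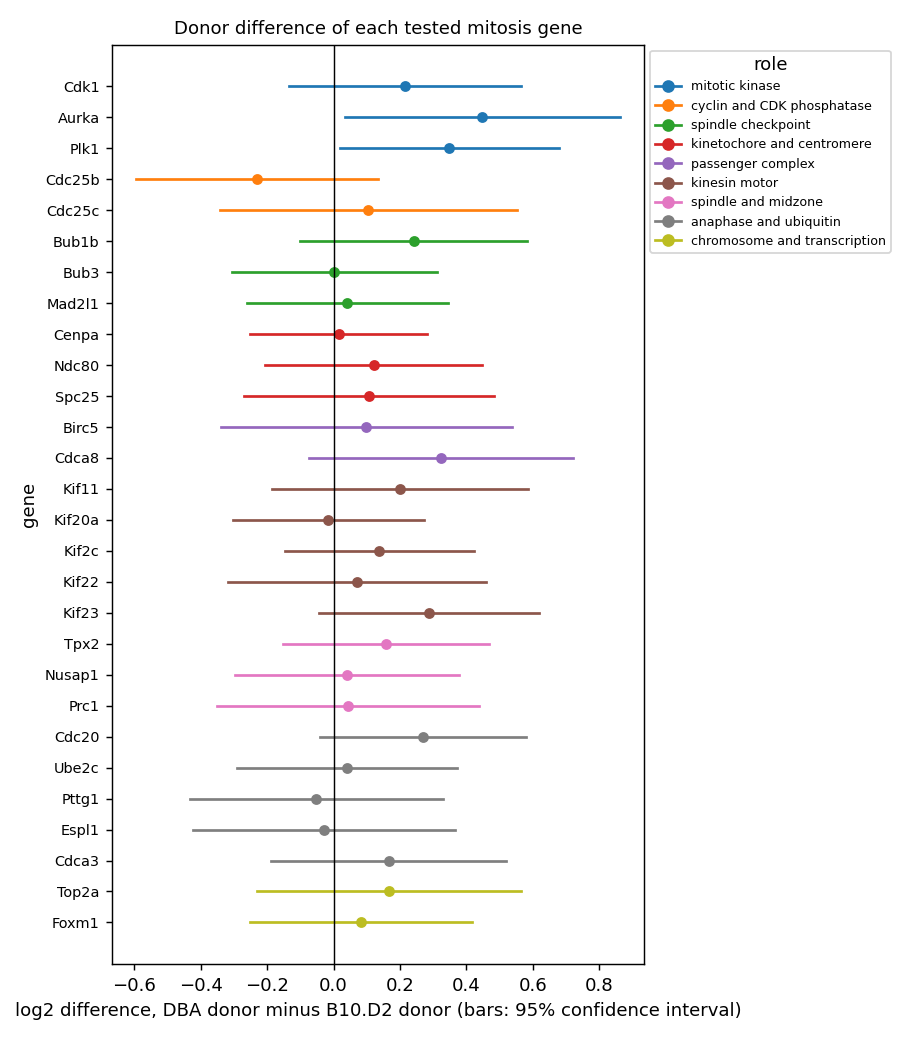
Difference in normalized log2 intensity, DBA donor minus B10.D2 donor, for each tested gene (points) with its 95% confidence interval (bars), coloured by role. The intervals of Aurka and Plk1 alone lie above 0, before adjustment over all probes, and 24 of the 28 points lie to the right of 0.

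The promoters of these genes are shown next, and their part in the array values was not tested. Promoters of many late cell cycle genes carry the cell cycle genes homology region (CHR), a site for the MuvB complexes that repress such genes in resting cells and activate them with B-Myb and FoxM1 in dividing ones, and CCAAT boxes, the sites of the NF-Y factor. RefSeq windows of 250 bases before to 50 after the transcript start (GRCm38.p6) were found for 34 of the 40 genes. The letters TTTGAA (the CHR core) on either strand were in the window of 25 of the 34 genes (73.5%), against 20.2% of 27025 genes in the table. CCAAT on either strand was in 27 of the 34 (79.4%), against 41.1%, and both were in 1 window of 23 genes (67.6%), against 7.97%. TTTGAA began within 50 bases of the start in 23 of the 34, against 5.72% of all genes. A match of letters is a description and not a measured binding site, and the motifs and the distance were chosen with the sequences in view.

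The stretches from 100 bases before to 50 after the start are given for the 3 genes with probes at an unadjusted p under 0.05 (Aurka, Plk1, Cdc20) and for 4 others of different roles. The 4 others were picked by hand, and all 4 carry both motifs. Capitals mark CCAAT and TTTGAA, or their reverse complements, and each line reads 5′ to 3′ on the gene's strand. They lie at chr2:172370521-172370670 (Aurka, minus strand), chr7:122159335-122159484 (Plk1, plus strand), chr4:118437294-118437443 (Cdc20, minus strand), chr4:124936868-124937017 (Cdca8, minus strand), chr9:61946750-61946899 (Kif23, minus strand), chr7:80294351-80294500 (Prc1, plus strand, the first of its 2 windows in the table) and chr5:30666786-30666935 (Cenpa, plus strand).
Aurka: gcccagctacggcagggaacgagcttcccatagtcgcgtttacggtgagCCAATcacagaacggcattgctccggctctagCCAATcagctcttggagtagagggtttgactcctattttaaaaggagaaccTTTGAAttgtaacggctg
Plk1: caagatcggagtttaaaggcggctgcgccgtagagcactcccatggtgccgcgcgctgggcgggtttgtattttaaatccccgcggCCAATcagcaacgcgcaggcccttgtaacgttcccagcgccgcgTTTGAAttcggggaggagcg
Cdc20: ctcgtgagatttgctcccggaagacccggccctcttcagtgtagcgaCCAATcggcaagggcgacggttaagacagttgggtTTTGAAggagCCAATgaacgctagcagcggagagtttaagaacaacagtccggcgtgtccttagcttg
Cdca8: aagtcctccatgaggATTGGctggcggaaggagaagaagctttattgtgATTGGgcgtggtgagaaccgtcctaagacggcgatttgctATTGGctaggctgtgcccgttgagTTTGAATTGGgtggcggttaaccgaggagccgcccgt
Kif23: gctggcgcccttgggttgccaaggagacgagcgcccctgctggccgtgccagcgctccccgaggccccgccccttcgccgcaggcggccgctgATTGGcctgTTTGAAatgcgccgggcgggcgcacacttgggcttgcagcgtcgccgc
Prc1: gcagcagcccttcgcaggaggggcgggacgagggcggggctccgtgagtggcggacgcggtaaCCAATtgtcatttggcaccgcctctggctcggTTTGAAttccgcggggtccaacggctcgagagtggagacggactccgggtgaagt
Cenpa: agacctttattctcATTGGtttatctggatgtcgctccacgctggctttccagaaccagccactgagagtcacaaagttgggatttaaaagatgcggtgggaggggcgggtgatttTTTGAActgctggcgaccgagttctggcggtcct
All 7 stretches hold 1 TTTGAA each, downstream of at least 1 CCAAT or ATTGG. With genes picked by hand this does not give how common the motifs are, and 23 of the 34 genes had both. Bub1, Cdc25b, Cenpe and Ccnb1 had CCAAT but no TTTGAA in their windows. In Aurka a pair of CCAAT boxes begins 51 and 19 bases before the start and TTTGAA begins at base 33 of the transcript. In Cdc20 the boxes begin 53 and 8 bases before the start, and TTTGAA lies between them, 18 bases before it. In Cdca8 TTTGAA and the last of 4 ATTGG copies share 1 base. Aurka, with a donor difference of 0.45, and Prc1 and Cenpa, with 0.04 and 0.01, all carry both motifs. Prc1 and Cenpa were picked by hand, and whether the motifs go with the donor differences was not tested.

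The kinases that drive entry into mitosis had the largest differences of any role, with a median of 0.35 over the 3 tested. Aurka, the kinase of centrosome maturation and spindle poles, read 9.51, 10.13, 9.79 and 9.66 on DBA donor replicates 1 to 4, against 9.06, 9.08, 9.31 and 9.85 on B10.D2 donor replicates 1 to 4. The 4 DBA donor arrays lay above 3 of the B10.D2 donor arrays, and B10.D2 donor replicate 4 fell among them. The log2 difference was 0.45 (SE 0.19, 95% confidence interval 0.03 to 0.86, 1.36-fold, unadjusted p = 0.0369, limma adjusted p = 0.312), and 0.33 to 0.62 with any 1 array left out. Plk1, the polo-like kinase of mitotic entry and spindle assembly, read 9.70, 10.21, 9.93 and 9.69 in DBA donor spleens, against 9.62, 9.28, 9.41 and 9.82 in B10.D2 donor spleens. Its groups overlapped through B10.D2 donor replicate 4 alone, with a difference of 0.35 (SE 0.15, 95% confidence interval 0.02 to 0.68, 1.27-fold, unadjusted p = 0.0402, limma adjusted p = 0.321). Cdk1, the kinase partner of the mitotic cyclins, read 9.56, 10.10, 9.73 and 9.61 in DBA donor spleens, against 9.37, 9.34, 9.49 and 9.94 in B10.D2 donor spleens. It too overlapped only through B10.D2 donor replicate 4, and differed by 0.21 (SE 0.16, limma adjusted p = 0.576). A further 2 Cdk1 probes were not above background on any array, so a dark probe does not show that the RNA was absent. Aurkb, the kinase of the chromosomal passenger complex, had no listed probe.

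Cyclins and the phosphatases that switch on Cdk1 were poorly covered. The cyclin A gene Ccna2 was above background on 1 of 4 arrays in the DBA donor group and 1 of 4 in the B10.D2 donor group, and was not tested, the cyclin B gene Ccnb2 was above background on none, and Ccnb1 had no listed probe. Cdc25b, a phosphatase that activates cyclin-dependent kinases at mitotic entry, was the largest negative difference among the 28 genes. It read 7.70, 8.28, 7.53 and 7.94 in DBA donor spleens, against 7.85, 8.10, 8.05 and 8.37 in B10.D2 donor spleens. The groups overlapped, at a difference of -0.23 (SE 0.16, 95% confidence interval -0.59 to 0.14, limma adjusted p = 0.562). Cdc25c, the related phosphatase, read 6.50, 6.98, 6.62 and 6.41 in DBA donor spleens, against 6.24, 6.20, 6.52 and 7.12 in B10.D2 donor spleens. Its 2 tested probes differed by 0.11 (SE 0.20) and -0.02 (SE 0.14), both less than their SE, and the first turned to -0.01 with median scaling.

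**Figure D4:**
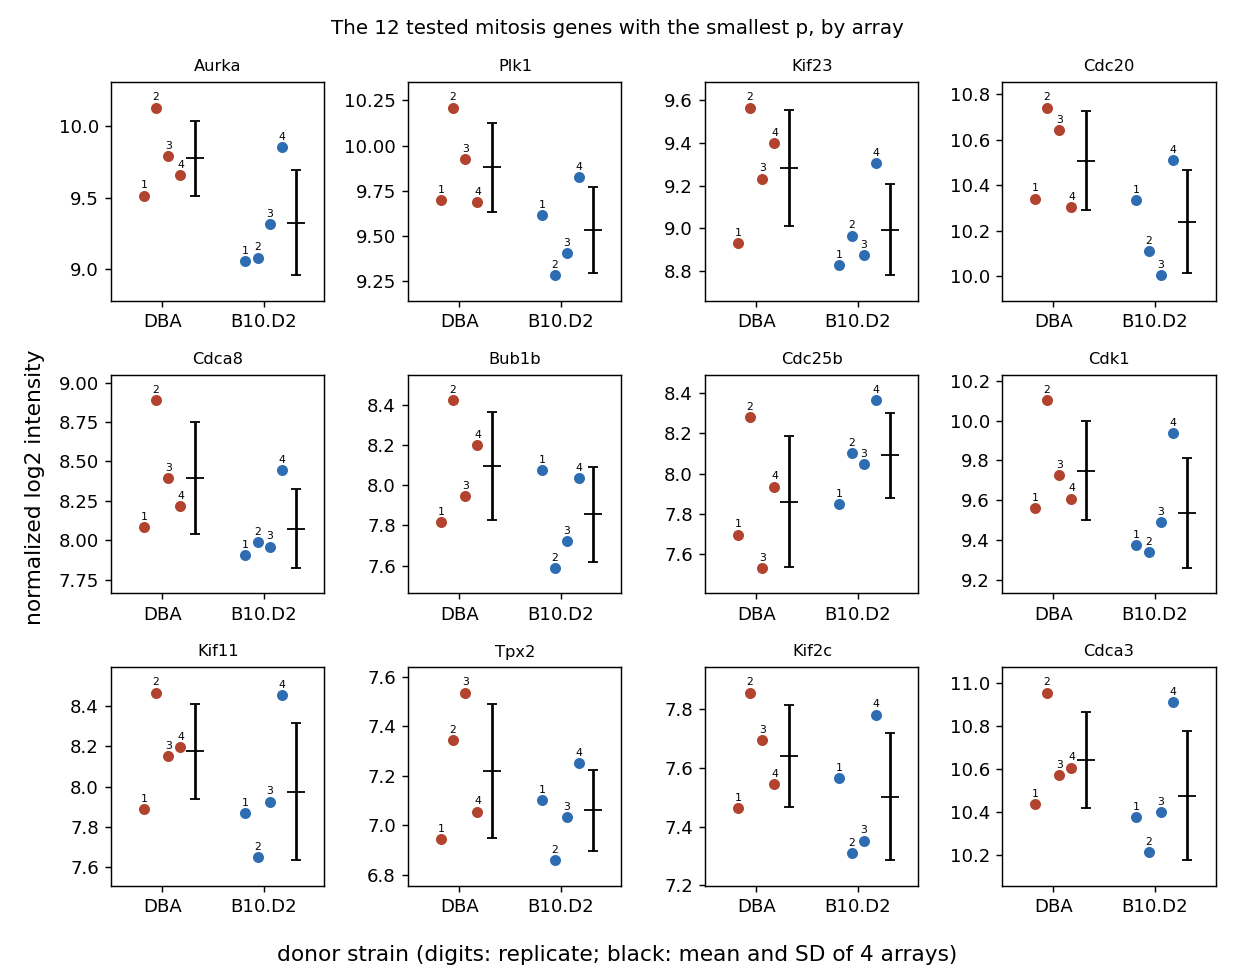
Normalized log2 intensity on each array of the 12 tested genes with the smallest p, DBA donor (red) left of B10.D2 donor (blue). Points are arrays with their replicate number, and black marks give the mean and SD of 4 arrays. Replicate 2 is the highest DBA donor point in 11 of the 12 panels (replicate 3 for Tpx2), and replicate 4 is the highest B10.D2 donor point in 11 of the 12 (replicate 1 for Bub1b).

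Of the spindle checkpoint, which delays anaphase until chromosomes are attached, 3 of 5 genes could be tested. Bub1b, which encodes the checkpoint protein BubR1, read 7.82, 8.42, 7.95 and 8.20 in DBA donor spleens, against 8.07, 7.59, 7.72 and 8.04 in B10.D2 donor spleens. The groups overlapped, with both replicates 1 and 3 of the DBA donor group below the highest B10.D2 donor array, and the difference was 0.24 (SE 0.15, limma adjusted p = 0.508). Mad2l1, the inhibitor of Cdc20, read 9.57, 10.04, 9.74 and 9.53 in DBA donor spleens, against 9.60, 9.52, 9.63 and 9.96 in B10.D2 donor spleens, a difference of 0.04 (95% confidence interval -0.26 to 0.34). Bub3, which brings the Bub kinases to kinetochores, differed by 0.00269 (SE 0.14), and by -0.11 with median scaling. Bub1 and Ttk, the kinases at the head of the checkpoint, were not above background on any array.

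Kinetochore and centromere genes had 3 tested members of 6, all with confidence intervals that spanned 0. Cenpa, the histone H3 variant that marks centromeres, read 12.07, 12.40, 12.31 and 12.24 in DBA donor spleens, against 12.11, 12.11, 12.19 and 12.54 in B10.D2 donor spleens. Its difference was 0.01 (95% confidence interval -0.25 to 0.28), with B10.D2 donor replicate 4 the highest of all 8 arrays. Ndc80 and Spc25, parts of the Ndc80 complex that grips microtubules, differed by 0.12 (SE 0.15) and 0.11 (SE 0.17), and a second Spc25 probe by 0.24 (SE 0.20). Nuf2, of the same complex, and the kinetochore motor Cenpe were not above background on any array, and Cenpf had no listed probe.

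The chromosomal passenger complex, which corrects faulty attachments and then acts in cytokinesis, was represented by 2 genes. Cdca8, which encodes borealin, read 8.08, 8.89, 8.39 and 8.22 in DBA donor spleens, against 7.90, 7.99, 7.96 and 8.44 in B10.D2 donor spleens. All 4 DBA donor arrays were above 3 of the B10.D2 donor arrays, and the difference was 0.32 (SE 0.18, limma adjusted p = 0.444; 0.16 without DBA donor replicate 2). Birc5, which encodes survivin, read 10.67, 11.29, 10.73 and 10.72 in DBA donor spleens, against 10.70, 10.38, 10.64 and 11.30 in B10.D2 donor spleens. The highest array of each group reached nearly the same level. The 3 tested Birc5 probes differed by 0.10, 0.19 and 0.18, each by less than its SE.

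All 5 kinesin motor genes were tested, 4 with positive differences and none past the test. Kif23, a motor of the central spindle in cytokinesis, read 8.93, 9.56, 9.23 and 9.40 in DBA donor spleens, against 8.83, 8.97, 8.88 and 9.30 in B10.D2 donor spleens. Its difference was 0.29 (SE 0.15, 95% confidence interval -0.04 to 0.62, limma adjusted p = 0.412). Kif11, the motor that pushes spindle poles apart, read 7.89, 8.47, 8.15 and 8.20 in DBA donor spleens, against 7.87, 7.65, 7.93 and 8.46 in B10.D2 donor spleens. Its difference of 0.20 (SE 0.17, limma adjusted p = 0.640) was smaller than the spread within either group. Kif2c, which depolymerises microtubules at kinetochores, read 7.46, 7.86, 7.69 and 7.54 in DBA donor spleens, against 7.57, 7.31, 7.35 and 7.78 in B10.D2 donor spleens, a difference of 0.14 (SE 0.13). Kif22, a chromosome-arm motor, read 9.89, 10.45, 10.15 and 10.07 in DBA donor spleens, against 10.06, 9.78, 9.87 and 10.57 in B10.D2 donor spleens. It differed by 0.07 (SE 0.18), and Kif20a, a motor of cytokinesis, by -0.02 (SE 0.13).

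Among spindle and midzone proteins, Tpx2, an activator of Aurka on the spindle, read 6.94, 7.34, 7.54 and 7.06 in DBA donor spleens, against 7.10, 6.86, 7.03 and 7.25 in B10.D2 donor spleens. It is the gene whose highest DBA donor array was replicate 3, and it differed by 0.16 (SE 0.14, limma adjusted p = 0.649). Prc1, which bundles microtubules of the midzone, read 11.07, 11.71, 11.15 and 11.28 in DBA donor spleens, against 11.17, 11.04, 11.10 and 11.73 in B10.D2 donor spleens. Here 1 array of each group stood clear of the other 3, and the group means differed by 0.04 (SE 0.18). Nusap1, a microtubule-binding protein, read 10.36, 10.90, 10.45 and 10.51 in DBA donor spleens, against 10.30, 10.44, 10.42 and 10.89 in B10.D2 donor spleens, and its 2 tested probes differed by 0.04 (SE 0.15) and -0.03 (SE 0.26). Both Hmmr probes were not above background on any array, and Racgap1 had no listed probe.

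Of the genes of anaphase, Cdc20, the activator of the anaphase-promoting complex, had the clearest donor difference, and its size depended on the probe. Its representative probe read 10.34, 10.74, 10.64 and 10.30 in DBA donor spleens, against 10.33, 10.11, 10.00 and 10.51 in B10.D2 donor spleens. This probe differed by 0.27 (SE 0.14, limma adjusted p = 0.413). Another Cdc20 probe read 8.85, 9.26, 9.21 and 8.87 in DBA donor spleens, against 8.63, 8.20, 8.35 and 8.78 in B10.D2 donor spleens. It was the only 1 of the 38 probes whose groups did not overlap, where 4.15% of all tested probes lay fully higher in DBA donor spleens and 4.22% fully lower. Its difference was 0.56 (SE 0.15, 95% confidence interval 0.23 to 0.89, 1.47-fold, unadjusted p = 0.00346, limma adjusted p = 0.182). The other two probes differed by 0.48 (SE 0.16, unadjusted p = 0.0134, limma adjusted p = 0.233) and 0.23 (SE 0.13), so all 4 were positive.

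Cdca3, a trigger of mitotic entry through ubiquitination, read 10.44, 10.96, 10.57 and 10.61 in DBA donor spleens, against 10.38, 10.22, 10.40 and 10.91 in B10.D2 donor spleens. Its 2 probes differed by 0.17 (SE 0.16) and 0.05 (SE 0.17). The ubiquitin-conjugating enzyme Ube2c differed by 0.04 (SE 0.15), the securin gene Pttg1 by -0.05 (SE 0.17) and the separase gene Espl1, which encodes the protease that cuts cohesin at anaphase, by -0.03 (SE 0.18). The differences of Ube2c, Pttg1 and Espl1 were each smaller than their SE. Top2a, the topoisomerase that untangles sister chromatids, read 10.26, 11.004, 10.34 and 10.53 in DBA donor spleens, against 10.30, 10.17, 10.23 and 10.77 in B10.D2 donor spleens. It differed by 0.17 (SE 0.18, limma adjusted p = 0.715), and by 0.01 without DBA donor replicate 2. Foxm1, a transcription factor of late cell cycle genes, differed by 0.08 (SE 0.15) and on its other probe by 0.03 (SE 0.14), and turned to -0.01 with median scaling. The proliferation marker Mki67 had no listed probe.

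A repeat without both high arrays was chosen after seeing the data. The median difference of the 28 genes was then 0.13, with 24 positive, against 46% of all tested genes. Aurka differed by 0.51, Plk1 by 0.34 and Cdca8 by 0.28. The 2 arrays were dropped because these same genes were high on them, which by itself lowers the spread of these genes, so the smaller errors of this repeat are not read as a result. Limma called 0 of the 38 probes at an adjusted p under 0.05, with 7 at an unadjusted p under 0.05. Of all 12950 tested probes it called 8, with 1924 at an unadjusted p under 0.05.

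Other genes of cell division followed the same arrays. In a list of 70 further mitosis genes, 45 were tested, with a median difference of 0.10, 29 positive and 0 past the test, which 0.0775% of all tested genes passed. An unadjusted p under 0.05 was reached by 4 that were higher and 0 that were lower, against 6.16% and 8.15% of all tested genes. Spc24, a partner of Spc25 in the Ndc80 complex, differed by 0.34 (SE 0.11, limma adjusted p = 0.225), Cenpm by 0.35 (SE 0.12, limma adjusted p = 0.246) and the histone kinase gene Haspin by 0.30 (SE 0.12, limma adjusted p = 0.289). DBA donor replicate 2 was the highest of its group for 38 of these 45 genes and B10.D2 donor replicate 4 for 39. Of the DNA replication genes 34 were tested, with a median of 0.11, 28 positive and 0 past the test (1 higher at an unadjusted p under 0.05). DBA donor replicate 2 was highest for 30 of the 34 and B10.D2 donor replicate 4 for 33. Condensin and cohesin genes, with 12 tested, had a median of -0.03, with 4 positive, yet the same arrays were highest for 11 and 10 of the 12. A list of anaphase-promoting complex subunits and Ube2s, a ubiquitin-conjugating enzyme that works with the complex, had 10 tested genes with a median of 0.09, and the 2 arrays were highest for 4 and 5 of them, Ube2s included in both. The donor medians of the 2 larger lists moved with single arrays. Without DBA donor replicate 2 they were -0.02 for the further mitosis genes and 0.00552 for the replication genes. Without B10.D2 donor replicate 4 they were 0.23 and 0.26. Without both arrays they were 0.07, with 28 of 45 positive, and 0.15, with 30 of 34 positive.

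Markers of other cells of the spleen moved with the high arrays. The 14 tested erythroid genes averaged 10.67 on DBA donor replicate 2, against 9.71 to 10.18 on the other DBA donor arrays, and 10.72 on B10.D2 donor replicate 4, against 9.71 to 10.19 on the other B10.D2 donor arrays. Those 2 arrays were the highest of their groups for 12 and 11 of the 14 genes. Klf1, a regulator of red cell genes, read 9.63, 11.08, 10.17 and 10.47 in DBA donor spleens, against 9.79, 10.09, 10.33 and 11.28 in B10.D2 donor spleens, and so peaked on the same arrays as the mitosis genes. Rhd was below the filter, while Hba-a1 was the brightest value on every array and has no order there. Across donors the erythroid list had a median of -0.08, with 3 of 14 positive, and without B10.D2 donor replicate 4 a median of 0.08, with 10 of 14 positive. Without DBA donor replicate 2 the median was -0.28, with 1 of 14 positive, and without both arrays -0.11, with 6 of 14 positive.

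T cell, mature B cell and germinal centre B cell lists had their lowest means of each group on these arrays, and plasma cell genes on B10.D2 donor replicate 4 alone. The megakaryocyte and platelet list (8.148 on DBA donor replicate 2 and 8.113 on B10.D2 donor replicate 4) was also lowest on both. The same held for the neutrophil granule list (9.175 and 9.32). Of all tested genes, 35.2% were lowest of their group on DBA donor replicate 2 and 36.9% on B10.D2 donor replicate 4. The 8 tested T cell genes averaged 8.58 on DBA donor replicate 2, against 8.80 to 9.07 on the other DBA donor arrays, and 8.63 on B10.D2 donor replicate 4, against 9.08 to 9.15 on the other B10.D2 donor arrays. The 8 tested mature B cell genes averaged 9.48 on DBA donor replicate 2, against 9.65 to 9.94, and 9.77 on B10.D2 donor replicate 4, against 9.99 to 10.05. The 4 tested germinal centre B cell genes averaged 8.46 against 8.70 to 8.94 in the DBA donor group and 7.63 against 8.77 to 8.91 in the B10.D2 donor group, and the 10 plasma cell genes averaged 9.19 on DBA donor replicate 2, against 8.98 to 9.40, and 7.95 on B10.D2 donor replicate 4, against 8.82 to 9.40. Of 8 pancreas genes with a probe, 7 were above background on B10.D2 donor replicate 4 and on no other array of that group. Of these 7, 1 (Ctrb1) was also above background on DBA donor replicate 4. Cela1, a pancreatic elastase above background on all 8 arrays, read 10.85 on B10.D2 donor replicate 4, against 8.30 to 8.65 on the other 3 of that group. The part of these markers in the mitosis gene values was not tested.

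**Figure D5:**
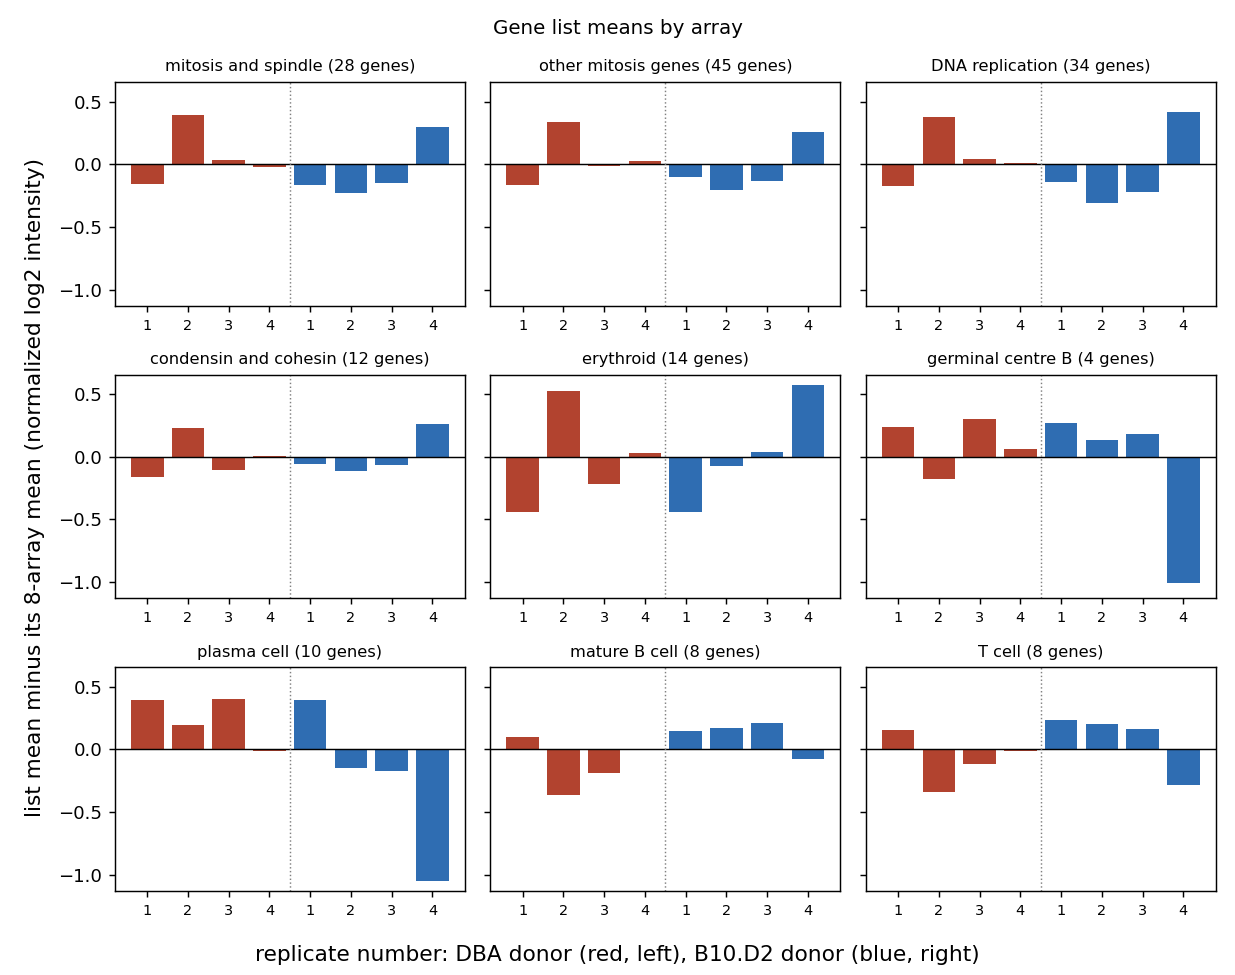
Mean normalized log2 intensity of each gene list on each array minus that list's mean over the 8 arrays, with DBA donor arrays (red, replicates 1 to 4) left and B10.D2 donor arrays (blue, replicates 1 to 4) right. DBA donor replicate 2 and B10.D2 donor replicate 4 are the highest bars of their groups for mitosis, DNA replication, condensin and cohesin and erythroid genes, and the lowest for germinal centre B, mature B and T cell genes.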

How the data were processed

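Each array has a mean bead intensity per probe, on a linear scale and not normalized, per the file headers. The deposited table pairs it with a detection p-value against that array's negative controls. The deposited series matrix holds intensity that the authors had processed further by steps not given in the sources used here. It served as an alternative. Per the submitters' processing notes, GenomeStudio was used, with no version.

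Intensity was background-corrected by normexp from the detection p-values (offset 16), quantile-normalized and put on a log2 scale with limma 3.58.1 in R 4.3.3. A probe was tested where its detection p was below 0.05 in 4 or more of the 8 arrays (12950 of 25697), with lmFit and eBayes, two-sided, and adjusted by Benjamini-Hochberg over all of them. A gene is given by its tested probe with the highest mean. Of 25697 probes, 1719 had no gene symbol in the platform table. The Entrez numbers of 23962 others were found in the RefSeq gene table (GRCm38.p6). The probe sequences and the chip positions of the arrays were not used here, so no batch was tested. Precision is limited by having 4 arrays a group.

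The members, the lists and the naming rule were chosen with earlier results of these data known. All 40 members are accounted for. Values on every array are given for the 12 with the smallest unadjusted p, the member of each role with the brightest probe, and those whose tested probes differed in sign or by over 0.3. Up to 3 members of each other list with the smallest p could be named. Klf1, Rhd, Hba-a1, the untested pancreas genes and the tissue markers fall outside this rule and were chosen after their values were seen. Alternatives changed the background correction, the scaling, the probe filter, the summary per gene, the variance model, array weights, the threshold and the arrays left out. Same-numbered samples of the groups deviated with correlations of 0.341, -0.354, 0.0469 and 0.0403, so the numbers were not taken as pairs. Plots used matplotlib 3.10.9 (Python 3.11.15).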

Additional observations from a re-analysis of the deposited data

Results flagged for a closer look

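Of 58 sets of 4 values, 6 had 1 array well apart from the other 3, where chance flags about 1 in 20, or 2.9. All 6 were the array of its group that was high for the mitosis genes in general, so they are not separate observations. On DBA donor replicate 2, Birc5 read 11.29, against 10.67 to 10.73 on the other 3, and Espl1 read 8.05, against 7.46 to 7.56. On B10.D2 donor replicate 4, Cdca8 read 8.44, against 7.90 to 7.99, Ndc80 read 8.19, against 7.83 to 7.87, and Spc25 read 8.48, against 7.83 to 7.93. The mean of the 28 tested genes was 8.94 on B10.D2 donor replicate 4, against 8.41 to 8.49 on the other 3. What set these arrays apart was not tested.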

How the results depend on the processing

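Limma called 0 mitosis probes under all 20 alternatives run, 1 of them (both high arrays left out) added after seeing the data. At an unadjusted p below 0.05 there were 4 of 38 mitosis probes in the fit reported, against 1878 of all 12950. With 1 array left out there were 2 to 11 mitosis probes, against 1233 to 2357 of all. The 11 and the 2357 both came without B10.D2 donor replicate 4. The number of all probes called was 9 in the fit reported, and 17 with median scaling, 45 with array weights, 35 at an adjusted p under 0.1, 0 with no filter on dim probes (2758 at an unadjusted p under 0.05) and 0 to 11 with 1 array left out; it was 0 without DBA donor replicate 3, DBA donor replicate 4 or B10.D2 donor replicate 2 (1233, 1997 and 1272 with an unadjusted p below 0.05). The replicate block gave 7 calls over all probes, 0 of them mitosis probes, and left the median of the mitosis genes at 0.11. With 1 array left out, the median ran from -0.01 (without DBA donor replicate 2) to 0.23 (without B10.D2 donor replicate 4), and the count of positive differences from 12 to 27; it was 21 under median scaling and 31 of 35 with no filter on dim probes. Of 530 recomputed single-gene values 489 kept their sign and 0 passed the test (lowest adjusted p 0.106), and 13 of 28 genes kept their sign under every alternative, Aurka, Plk1, Cdc20, Cdca8, Kif23 and Cdc25b among them. Signs turned for Bub3 without background correction (-0.00206) and with median scaling (-0.11), for Cdc25c (-0.00906) and Foxm1 (-0.0146) with median scaling, and for Espl1 with array weights (0.0314). With 1 array left out, differences ran from -0.0475 to 0.28 for Birc5, -0.0818 to 0.13 for Bub3, -0.0128 to 0.30 for Cdc25c, -0.034 to 0.12 for Cenpa, -0.17 to 0.13 for Espl1, -0.0132 to 0.20 for Foxm1, -0.11 to 0.0507 for Kif20a, -0.0324 to 0.24 for Kif22, -0.0637 to 0.14 for Mad2l1, -0.0187 to 0.21 for Ndc80, -0.0738 to 0.17 for Nusap1, -0.0943 to 0.20 for Prc1, -0.19 to 0.0859 for Pttg1, -0.0150 to 0.26 for Spc25 and -0.0705 to 0.15 for Ube2c. Among genes that kept their sign they ran from 0.13 to 0.33 for Bub1b, 0.0605 to 0.31 for Cdca3, 0.16 to 0.45 for Cdca8, 0.0966 to 0.35 for Cdk1, 0.0921 to 0.36 for Kif11, 0.0655 to 0.23 for Kif2c, 0.0114 to 0.30 for Top2a, 0.0525 to 0.25 for Tpx2 and -0.37 to -0.12 for Cdc25b. The cause of these changes was not tested. The 6 genes whose probes were at background on every array have no measured direction.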

Other observations

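A list of cell cycle inhibitors and genes of the resting state, which also holds E2F and MuvB partners such as Tfdp1 and Mybl2 (B-Myb) that act in dividing cells, showed differences of both signs. Of its 18 tested genes, 10 had positive and 8 negative differences, with a median of 0.03 and 0 past the limma test. An unadjusted p under 0.05 was reached by 2 of the higher and 1 of the lower, against 6.16% and 8.15% of all tested genes. Cdkn1a, which encodes the inhibitor p21, differed by 0.32 (SE 0.09, limma adjusted p = 0.207), and its DBA donor arrays all lay above the B10.D2 donor arrays, as did those of 3.69% of all tested genes. Tfdp1, the partner of E2F factors, differed by 0.28 (SE 0.12, limma adjusted p = 0.312) and Btg1, an antiproliferative gene of resting lymphocytes, by -0.23 (SE 0.09, limma adjusted p = 0.312). DBA donor replicate 2 was the highest array of its group for 10 of these 18 genes and B10.D2 donor replicate 4 for 8.

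Marker lists of other spleen cells had 0 genes past the limma test between donors, and the medians of several moved when B10.D2 donor replicate 4 was left out. The median difference over 10 plasma cell genes was 0.47, and 0.28 without that array, with 9 positive either way, against 46% of all tested genes. With all arrays 4 of the 10 were higher at an unadjusted p under 0.05, against 6.16% of all tested genes. Without that array 2 of the 10 were, against 676 of 9028 tested genes. Over 4 germinal centre B cell genes the median was 0.15 with 4 positive, and -0.09 with 1 positive without that array. Over 8 mature B cell genes it was -0.19 with 0 positive, and -0.10 without DBA donor replicate 2. Over 8 T cell genes it was -0.18 with 1 positive, and -0.06 without DBA donor replicate 2 and -0.29 without B10.D2 donor replicate 4. With all arrays, 2 mature B cell and 2 T cell genes were lower at an unadjusted p under 0.05, against 8.15% of all tested genes. The median was 0.09 over 9 megakaryocyte and platelet genes (0.16 without DBA donor replicate 2 and 0.04 without B10.D2 donor replicate 4). It was 0.10 over 11 neutrophil granule genes, and 0.29 without DBA donor replicate 2 and -0.05 without B10.D2 donor replicate 4. Over 10 red pulp macrophage genes it was -0.01, with 5 positive, and -0.05, with 2 positive, without B10.D2 donor replicate 4. Neutrophil granule genes were lowest of their group on DBA donor replicate 2 for 11 of 11, against 35.2% of all tested genes. On B10.D2 donor replicate 4 they were lowest for 10 of 11, against 36.9%. These are the arrays on which the mitosis genes were highest.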
